A study of Mus musculus with 8 samples.

Results

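The comparison described here set NRRA against vehicle (Veh) in spermatogonial stem cell (SSC) cultures labelled SPO11KO, hereafter Spo11KO, and took in all genes of the deposited count table. It used 4 of the 8 libraries of the series, 2 from Spo11KO cultures in NRRA and 2 from Spo11KO cultures in Veh, chosen by their column names. NRRA is nutrient restriction plus retinoic acid (RA): per the study's methods, most of the complete SSC medium was replaced by Earle's balanced salt solution and RA was added, for a pair of days. Veh was the complete medium. All groups shared the background written C57BL/6XDBA/2 in the labels, primary spermatogonia taken from testes of neonatal pups, and a germline deficiency for a meiotic gene. The complete medium held N2, bFGF and GDNF. In NRRA these were diluted with the rest of that medium, so their supply was lower than in Veh. The germ cells grew on mitotically arrested mouse embryonic fibroblasts, so each library holds RNA of germ cells and of feeder cells, and fewer cells of a type and less RNA per cell cannot be told apart. Replicate libraries are independent biological samples by the study's own account. The other 4 libraries, Stra8KO in NRRA and in Veh, entered the fit and served as the point of comparison.

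The Spo11KO libraries held 22570586 to 27038868 counts, and 20588 of 55421 genes had enough counts to be tested. Spo11, the targeted gene, did not bear out the label: it had 3.03 and 3.26 CPM in Veh and 5.71 and 4.33 CPM in NRRA, all above 0, and the gene at chr2:172977700-172993576 on the plus strand was called higher in NRRA (log2 0.67, SE 0.187, adjusted p = 0.00238). In the Stra8KO libraries it was lower in either medium, with 1.43 and 1.56 CPM in Veh and 3.28 and 3.05 CPM in NRRA. A gene count does not show whether the transcript still encodes the protein, and no wild-type library was analysed here, so Spo11KO names the libraries by their label throughout. The label Stra8KO went with a far lower Stra8 level in NRRA, 8.16 and 7.85 CPM against 486 and 552 CPM in Spo11KO. Stra8 was not absent there, and went from 2 and 0 counts in the Stra8KO Veh libraries to 169 and 170 counts in NRRA. The spermatogonial label was checked against its markers. Ddx4, an RNA helicase of all germ cells, had 198 and 212 CPM in Veh and 225 and 234 CPM in NRRA, and Dazl, a germ cell RNA-binding protein, had 618 and 658 CPM in Veh and 603 and 649 CPM in NRRA. Of the other cells a testis could bring, macrophages and Leydig cells had scarce markers, while Sertoli markers differed in level between members. Which cells the tested Sertoli markers came from was not tested. The 12 macrophage markers together took 0.00424% to 0.00495% of the counts, with C1qb not tested for want of counts, and Amh and Fshr of Sertoli cells and Insl3 and Lhcgr of Leydig cells were likewise too low to test. Csf1r and Adgre1 of macrophages gave -0.32 and 0.95 (log2), and C1qa gave 0.93 (adjusted p = 0.503). Of 12 Sertoli markers 7 were tested, 3 fell and 0 rose, and their summed share was 0.0665% to 0.0667% in Veh and 0.0413% to 0.0432% in NRRA. Sox9 changed by -1.54 (log2), and Wt1 gave -0.069 (adjusted p = 0.767). Of 8 Leydig markers 3 were tested and 0 passed, with Cyp17a1 at -0.25 (log2, adjusted p = 0.764). Log2 values here and below are changes, NRRA minus Veh. Spo11 was not called without NRRA replicate 1 (log2 0.45, adjusted p = 0.105). Ddx4 was not called without NRRA replicate 2 (log2 0.12, adjusted p = 0.0502). Csf1r was not called without NRRA replicate 2 or Veh replicate 1 (log2 -0.27 to -0.22, adjusted p 0.0623 to 0.141).

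Spermatogonial stem cells renew in response to GDNF and FGF, which signal through RET, GFRA1 and the FGF receptors and keep up a set of transcription factors such as ETV5, BCL6B and LHX1. Retinoic acid, the active form of vitamin A, binds nuclear receptors that sit on direct repeats in target promoters, and moves spermatogonia towards KIT-positive, differentiating cells and, through STRA8 and MEIOSIN, towards meiotic prophase. SPO11 acts later, when it cuts DNA to start recombination, and cells without it are known to express meiotic genes up to that step.

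NRRA changed the level of 10279 genes (49.9% of those tested) at an adjusted p under 0.05, 5038 upward (24.5%) and 5241 downward (25.5%). At least 2-fold changes numbered 1402 upward (6.81%) and 1137 downward (5.52%). With libraries scaled by total counts alone the split was 6492 upward and 4033 downward, and the median of all genes moved from 0.013 to 0.105 (log2). The shares above are the background for every count of members below. Replicates differed little, with a common biological coefficient of variation of 3.39%. Whether this spread covers the variation between animals or between culture lines was not tested. Log2 fold changes are NRRA minus Veh throughout, levels are CPM, counts per 1e+06 counts after TMM scaling, errors of a level are SD with n = 2, and adjusted p values are from edgeR's quasi-likelihood test over all tested genes. CPM carries no correction for gene length and is compared only within a gene.

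**Figure D1:**
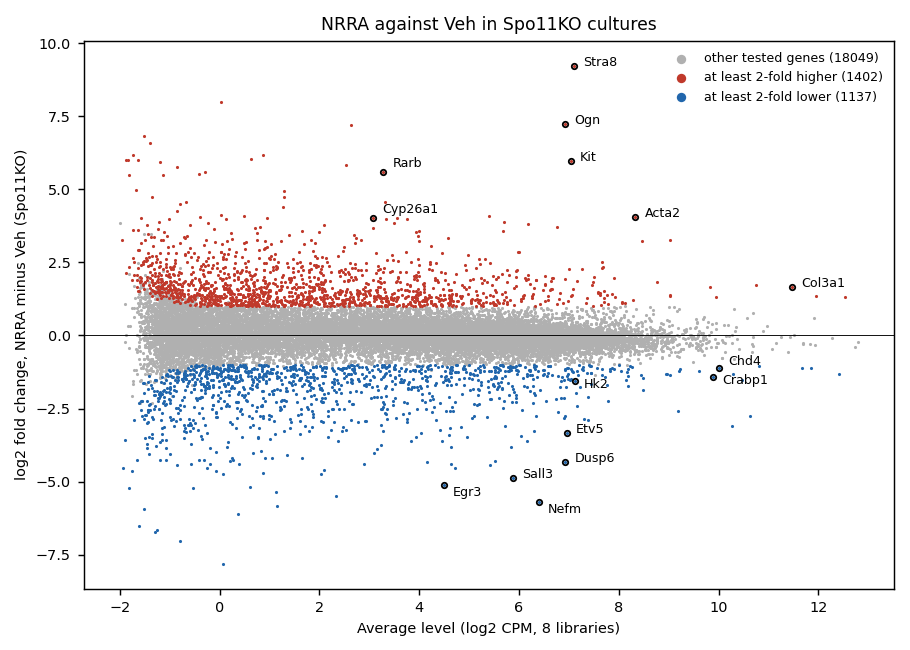
Average level of each of the 20588 tested genes (x axis, log2 CPM over the 8 libraries) against its log2 fold change, NRRA minus Veh, in Spo11KO cultures (y axis). Red points rose and blue points fell at least 2-fold at an adjusted p under 0.05, grey points did not pass both conditions. Named genes are labelled: Stra8, Ogn, Kit and Rarb lie at the top, and Nefm, Egr3, Sall3 and Dusp6 at the bottom.

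Genes of RA handling and RA response mostly rose. Of 32 tested genes of the RA list, 23 rose, 6 fell and 3 did not pass, with a median log2 fold change of 0.82. Rarb, the RA receptor gene that is itself an RA target, had 0.253 and 0.218 CPM in Veh and 10.3 and 12.9 CPM in NRRA (log2 5.60, SE 0.245, adjusted p = 3.30e-25). Cyp26a1, which breaks RA down, had 1.31 and 1.09 CPM in Veh and 18.2 and 20.8 CPM in NRRA (log2 4.02, SE 0.173, adjusted p = 1.63e-25). In both genes every NRRA library lay far above both Veh libraries, and groups that did not overlap were found for 71.9% of all tested genes.

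Both genes hold a match to the textbook RA response element close to the start of transcription, and their promoters are shown for that reason. The sequences are the 250 bases before the RefSeq start on GRCm38.p6, written 5′ to 3′ on the gene's strand. Capitals mark a direct repeat of hexamers spaced by 5 bases, searched on both strands. Accepted as a hexamer was the consensus AGGTCA, and so was the variant AGTTCA, as well as the variant GGGTCA and lastly the variant GGTTCA.
Rarb promoter, chr14:16575477-16575726, minus strand: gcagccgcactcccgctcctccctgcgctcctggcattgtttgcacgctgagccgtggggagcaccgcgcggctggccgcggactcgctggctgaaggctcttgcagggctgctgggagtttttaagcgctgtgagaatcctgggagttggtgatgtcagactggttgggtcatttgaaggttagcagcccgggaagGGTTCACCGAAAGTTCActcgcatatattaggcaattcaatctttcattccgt
Cyp26a1 promoter, chr19:37697558-37697807, plus strand: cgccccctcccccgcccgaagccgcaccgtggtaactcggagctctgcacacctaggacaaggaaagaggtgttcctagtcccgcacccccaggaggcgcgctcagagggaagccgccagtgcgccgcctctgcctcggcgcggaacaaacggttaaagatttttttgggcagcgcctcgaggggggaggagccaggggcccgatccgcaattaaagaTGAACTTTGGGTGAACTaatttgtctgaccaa

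The repeat lay 53 to 37 bases before the start in Rarb, on the gene's strand, and 32 to 16 bases before it in Cyp26a1, on the opposite strand. It was found in 29 of 32851 promoters of this length (0.088%). Counted by gene, it was in 28 of 27025 genes (0.104%) and in 2 of the 25 members of the RA list that had a promoter sequence. The same repeat with a spacer of 2 bases was in 0.174% of promoters, in 0.204% of genes and in 0 of these 25 members. A match describes letters in this window and is not a test of binding.

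The remaining RA genes differed by role. Among enzymes and binding proteins, 11 of 15 tested members rose and 2 fell. Dhrs3, which turns retinaldehyde back into retinol, went from 7.69 ± 0.791 to 55.5 ± 4.81 CPM (log2 2.85), and Cyp26b1, a further RA-degrading enzyme, from 55.6 ± 4.86 to 155 ± 5.75 CPM (log2 1.48). Crabp2, a carrier of RA, rose by 1.19 (log2). Crabp1, a second cytoplasmic RA carrier, moved the other way, with 885 and 906 CPM in Veh and 333 and 334 CPM in NRRA (log2 -1.43, SE 0.0358, adjusted p = 3.40e-35). Aldh1a3, which makes RA, fell as well (log2 -2.69), whereas its relative Aldh1a2 rose (log2 0.88), and Rdh10, the dehydrogenase upstream of both, gave 0.022 (log2, adjusted p = 0.907).

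Of the 6 receptor genes, 4 rose and 2 fell. Rara and Rarg rose by 0.17 and 0.37 (log2), small steps beside Rarb. The partner receptors split: Rxrb rose (log2 0.24), Rxra fell (log2 -0.45), and Rxrg had 11.5 and 10.6 CPM in Veh and 0.926 and 0.887 CPM in NRRA (log2 -3.60, SE 0.198, adjusted p = 2.97e-21). The Rxrg groups stood apart by a wide gap. Among other response genes, Tgm2, a transglutaminase, rose by 3.58 and Stra6, the cellular importer of retinol, by 2.39 (log2), and Hoxb1 fell (log2 -1.42). Cdx1 had 0 counts in both Veh libraries and 19 and 14 counts in NRRA, which makes it at least 4.65-fold higher against a floor of 3 counts per library. Rara was not called without NRRA replicate 2 or Veh replicate 2 (log2 0.10 to 0.14, adjusted p 0.0824 to 0.249).

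**Figure D2:**
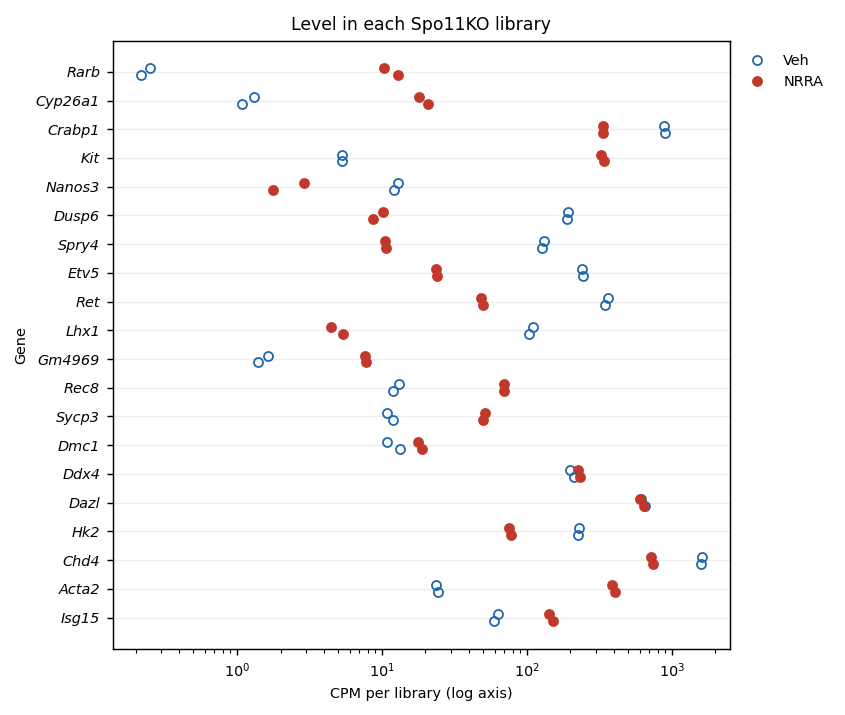
Level of 20 genes (rows) in each Spo11KO library (x axis, CPM on a log axis). Open circles are the 2 Veh libraries and filled circles the 2 NRRA libraries. Kit and Rarb lie far to the right in NRRA, the GDNF and FGF response genes Dusp6, Spry4, Etv5 and Ret far to the left, and Ddx4 and Dazl change little beside them.

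Spermatogonial differentiation genes moved in both directions. Of 21 tested, 11 rose and 5 fell, with a median log2 fold change of 0.19. Kit, the receptor for stem cell factor that marks differentiating spermatogonia, lies on chr5:75574916-75656722 on the plus strand. It had 5.31 and 5.31 CPM in Veh and 324 and 339 CPM in NRRA (log2 5.96, SE 0.0656, adjusted p = 5.10e-50). Sohlh1, a transcription factor upstream of Kit, rose from 22.1 ± 0.0343 to 89.1 ± 10.2 CPM (log2 2.01). Sox3 (log2 1.83), Ascl2 (log2 1.45) and Dnmt3b, a DNA methyltransferase of differentiating spermatogonia (log2 0.98), rose too. Sohlh2, the partner of Sohlh1, rose by only 0.12 (log2, adjusted p = 0.0131). Sohlh2 was not called without NRRA replicate 2 or Veh replicate 2 (log2 0.091 to 0.092, adjusted p 0.147 to 0.164).

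Other members of the same list fell. Nanos3, an RNA-binding protein of early spermatogonia, had 12.9 and 12.2 CPM in Veh and 2.89 and 1.77 CPM in NRRA (log2 -2.44, SE 0.152, adjusted p = 3.46e-19). Dmrtb1, a marker of differentiating spermatogonia, went from 9.93 ± 0.255 to 5.18 ± 0.527 CPM (log2 -0.94). Ccnd2, the D-type cyclin of spermatogonia, went from 1134 ± 30.6 to 669.6 ± 21.4 CPM (log2 -0.76), and Upp1, uridine phosphorylase, from 15.9 ± 0.0259 to 2.74 ± 0.658 CPM (log2 -2.52). In each of these 4 genes both NRRA libraries lay below both Veh libraries.

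Genes of undifferentiated spermatogonia fell as a group. Of 22 tested, 18 fell, 15 of them at least 2-fold, 2 rose and 2 did not pass, with a median log2 fold change of -2.20. Etv5, the GDNF-responsive transcription factor needed for stem cell renewal, had 242 and 243 CPM in Veh and 23.5 and 24.1 CPM in NRRA (log2 -3.34, SE 0.0527, adjusted p = 9.21e-44). Lhx1, a GDNF target, had 111 and 104 CPM in Veh and 4.44 and 5.36 CPM in NRRA (log2 -4.45, SE 0.0823, adjusted p = 7.62e-41). Egr3 had 59.9 and 56 CPM in Veh and 1.16 and 2.12 CPM in NRRA (log2 -5.12, SE 0.124, adjusted p = 3.27e-34). In all 3 genes the replicates differed little beside the gap between the groups.

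Other members fell too. Nanos2, an RNA-binding protein that blocks differentiation, went from 8.29 ± 0.706 to 0.44 ± 0.295 CPM (log2 -4.18), and Foxc2 from 35 ± 4.09 to 3.44 ± 0.341 CPM (log2 -3.34). Bcl6b (log2 -2.77), Pax7 (log2 -2.26) and Sall1 (log2 -2.13) followed, then Id4, whose product marks stem cells (log2 -1.37), and Pou5f1 (log2 -1.27). Zbtb16, the PLZF repressor of undifferentiated spermatogonia, fell from 273 ± 4.71 to 133 ± 3.54 CPM (log2 -1.04). Sall4 and Foxo1, the only risers of the list, rose by 0.20 and 0.27 (log2). Lin28a had 94.6 and 88.1 CPM in Veh and 88.3 and 88.6 CPM in NRRA, groups that overlapped (adjusted p = 0.469).

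The signalling pathway that maintains these cells showed the same direction at its read-outs. GDNF and bFGF were themselves diluted in the NRRA medium, and the part of this dilution was not tested. Of 19 tested feedback regulators and immediate targets of GDNF and FGF signalling, 0 rose and 18 fell, 13 at least 2-fold, with a median log2 fold change of -1.55. Dusp6, the phosphatase that dampens ERK, had 193 and 189 CPM in Veh and 10.3 and 8.63 CPM in NRRA (log2 -4.34, SE 0.0652, adjusted p = 3.51e-43). Spry4, a Sprouty inhibitor of receptor tyrosine kinases, had 131 and 128 CPM in Veh and 10.5 and 10.7 CPM in NRRA (log2 -3.60, SE 0.0646, adjusted p = 2.20e-41). The ETS factors Etv4 and Etv1 changed by -3.11 and -2.91, and Mycn by -1.08 (log2). Egr1, an immediate early gene, changed by -2.19 (log2). Dusp6 lies on chr10:99263231-99267489 on the plus strand.

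The receptors did not move together. Ret, the signalling receptor for GDNF, fell from 356 ± 10.5 to 49.2 ± 0.995 CPM (log2 -2.85, SE 0.0475, adjusted p = 1.02e-42), and Gfra1, its co-receptor, from 131 ± 3.28 to 36.4 ± 1.39 CPM (log2 -1.85, SE 0.0512, adjusted p = 2.05e-33). Fgfr1 fell little (log2 -0.20), whereas Fgfr2 (log2 1.23) and Fgfr3 (log2 1.17) rose. Ncam1, which can also bind GDNF, rose from 51.6 ± 4.37 to 132 ± 3.92 CPM (log2 1.35).

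**Figure D3:**
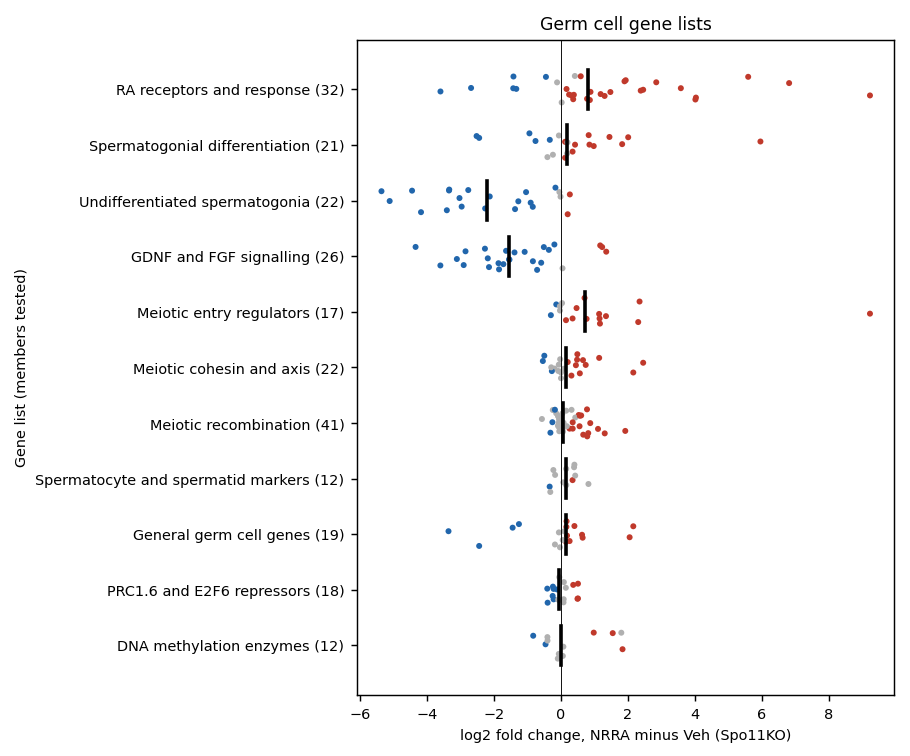
Log2 fold change, NRRA minus Veh, in Spo11KO cultures (x axis) of each tested member of 11 germ cell gene lists (rows). Red points rose and blue points fell at an adjusted p under 0.05, grey points did not pass, and the black bar is the median of the list. The undifferentiated list and the GDNF and FGF list lie mostly left of 0, the RA list and the list of meiotic entry regulators mostly right, and recombination genes cluster near 0.

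Regulators of meiotic entry rose. Of 17 tested, 12 rose, 7 at least 2-fold, 2 fell and 3 did not pass (median log2 fold change 0.71). Stra8, on chr6:34920163-34939344 on the plus strand, led with 1.18 and 0.522 CPM in Veh and 486 and 552 CPM in NRRA (log2 9.24, SE 0.121, adjusted p = 7.32e-22). Gm4969, the gene for the STRA8 partner MEIOSIN, had 1.64 and 1.39 CPM in Veh and 7.72 and 7.81 CPM in NRRA (log2 2.35, SE 0.195, adjusted p = 9.66e-15). Rbm46, an RNA-binding protein needed for meiotic entry, went from 34.3 ± 3.55 to 87.2 ± 3.05 CPM (log2 1.35), and Ccna1, the cyclin of meiotic prophase, from 0.535 ± 0.0426 to 2.67 ± 0.229 CPM (log2 2.31). All of these groups were apart in every library.

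Smaller steps were seen further along the programme. Zfp541 and Kctd19, partners in a spermatocyte chromatin complex, rose by 1.15 and 1.17 (log2, adjusted p = 1.84e-05 and 0.047). Prdm9, which sets where recombination starts, went from 3.11 ± 0.223 to 5.28 ± 0.156 CPM (log2 0.77), Tex15 from 269 ± 12.2 to 439 ± 16.2 CPM (log2 0.71) and Meioc from 21.4 ± 0.505 to 29.5 ± 2.07 CPM (log2 0.47). Ythdc2, the helicase partner of MEIOC, had 28.8 and 31.9 CPM in Veh and 29.2 and 32.8 CPM in NRRA, groups that overlapped (adjusted p = 0.742). Kctd19 was not called without NRRA replicate 1, NRRA replicate 2, Veh replicate 1 or Veh replicate 2 (log2 0.83 to 1.59, adjusted p 0.063 to 0.31).

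Genes of the meiotic chromosome axis rose in part. Of 22 tested, 11 rose, 3 at least 2-fold, 3 fell and 8 did not pass. Rec8, the meiotic kleisin of cohesin and also an RA target, had 13.2 and 12 CPM in Veh and 69.3 and 69.3 CPM in NRRA (log2 2.46, SE 0.080, adjusted p = 1.25e-29). Sycp3, an axial element protein, had 10.8 and 12 CPM in Veh and 51.8 and 50.3 CPM in NRRA (log2 2.16, SE 0.0852, adjusted p = 4.54e-27). Stag3, a meiotic cohesin subunit, went from 167 ± 4.19 to 369 ± 5.62 CPM (log2 1.14). The steps of Smc1b (log2 0.74), Hormad1 (log2 0.66), Sycp2 (log2 0.57) and Sycp1 (log2 0.31) were below 2-fold. Smc3, a cohesin subunit shared with mitotic cells, and Trip13, a remodeller of HORMA proteins that also acts in mitosis, fell (log2 -0.54 and -0.50). Rad21l, a meiotic kleisin, and Syce1, of the central element, did not pass (log2 -0.19 and 0.0026, adjusted p = 0.214 and 0.979).

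Recombination genes that passed mostly rose. Of 41 tested, 15 rose, 3 fell and 23 did not pass, with a median log2 fold change of 0.062. Over all tested genes 49.9% passed, 24.5% upward and 25.5% downward. By role, 5 of 7 genes of double-strand break formation rose, 3 of 17 genes of strand exchange, and 7 of 17 genes of crossover. Mei1 had 3.41 and 3.44 CPM in Veh and 12.5 and 13.5 CPM in NRRA (log2 1.92, SE 0.145, adjusted p = 3.73e-16). Mei4 (log2 0.82) and Ccdc36, the gene for IHO1 (log2 0.53), which act with it in break formation, rose less. Rec114, of the same complex, did not pass (log2 0.079, adjusted p = 0.494).

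In strand exchange, Dmc1, the meiosis-specific recombinase, went from 12.1 ± 1.82 to 18.4 ± 0.859 CPM (log2 0.61). Rad51ap2 rose by 1.31 (log2). Among genes of chromosome movement and crossover, Ccdc155, the gene for the telomere-attachment protein KASH5, rose by 1.11, Terb1 by 0.88, Hfm1 by 0.78 and Tex11 by 0.56 (log2). Msh4 rose by 0.35 (log2), and its partner Msh5 gave 0.054 (adjusted p = 0.765). Meiob, a single-strand DNA binder, gave -0.089 (log2, adjusted p = 0.776). Markers of later spermatocytes and spermatids stayed scarce. Of 20 such markers 12 were tested, 1 rose and 1 fell (3 and 1 with total count scaling), and together they took 0.0102% to 0.0108% of the counts in every Spo11KO library, with Acr, Prm2 and Tnp2 too low to test. The riser was Piwil1 (log2 0.35). Ldhc, the lactate dehydrogenase of spermatocytes, and Prm1, a protamine, gave 0.39 and 0.82 (log2, adjusted p = 0.19 and 0.349). Msh4 was not called without NRRA replicate 1, NRRA replicate 2 or Veh replicate 1 (log2 0.16 to 0.35, adjusted p 0.0962 to 0.467). Piwil1 was not called without NRRA replicate 2 or Veh replicate 2 (log2 0.20 to 0.25, adjusted p 0.102 to 0.172).

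General germ cell genes moved in both directions, with 10 of 19 up, 2 at least 2-fold, and 4 down, all 4 at least 2-fold (median log2 fold change 0.15). The risers past 2-fold were Sycp3, given above, and Rhox9 (log2 2.05), and Nanos3, also given above, was among the fallers. Dppa3, a maternal and early germ cell factor, had 6 and 5 counts in Veh and 0 and 1 counts in NRRA, a ratio of Veh to NRRA of 13 (95% counting interval 1.89 to 559.7). Dppa3 was not called without NRRA replicate 1 (log2 -2.61) or without Veh replicate 1 (log2 -3.25). Dazl, as given above, overlapped between the groups (adjusted p = 0.58), and Ddx4 rose by 0.16 (log2). Piwil2 and Tdrd9, of the piRNA pathway that silences transposons, rose by 0.63 and 0.65 (log2). Piwil4, of the same pathway in fetal germ cells, gave -0.18 (log2, adjusted p = 0.112). Tfap2c and Prdm1, transcription factors of early germ cells, changed by -1.44 and -1.25 (log2), at low levels that went from 5.09 ± 0.488 to 1.88 ± 0.291 CPM and from 8.87 ± 0.629 to 3.71 ± 0.113 CPM.

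Chromatin regulators with a known tie to meiotic genes were looked at next. PRC1.6, a complex that with E2F6 represses meiotic genes in other cells, had 4 risers and 7 fallers among 18 tested genes, 0 of them at 2-fold, a balance that turned to 8 and 6 with total count scaling. E2f6 went from 63.9 ± 3.61 to 48.2 ± 1.68 CPM (log2 -0.41) and Pcgf6 from 37.1 ± 3.56 to 28.2 ± 1.35 CPM (log2 -0.40). L3mbtl2 fell too (log2 -0.24), and Mga, the scaffold of the complex, gave 0.088 (log2, adjusted p = 0.0553). Tet3, which oxidises methylated DNA, had 60.2 and 59 CPM in Veh and 172 and 177 CPM in NRRA (log2 1.55, SE 0.0479, adjusted p = 1.89e-31), while Tet2 fell (log2 -0.83). Uhrf1, which guides maintenance methylation, fell (log2 -0.46), and Dnmt1 and Dnmt3a gave -0.063 and 0.074 (log2, adjusted p = 0.133 and 0.167). Dnmt3l and Tet1 did not pass either (log2 -0.40 and -0.40, adjusted p = 0.217 and 0.147).

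A large fall in level was also found in a general chromatin gene. Chd4, the remodeller of the NuRD complex, had 1614 and 1604 CPM in Veh and 724 and 747 CPM in NRRA (log2 -1.13, SE 0.0338, adjusted p = 4.94e-32). It was among the 15 largest falls in CPM of all genes that met the naming conditions.

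Genes of sugar breakdown fell together. All 20 tested genes of glucose uptake and glycolysis were lower in NRRA, 7 at least 2-fold, with a median log2 fold change of -0.76. Hk2, the inducible hexokinase that commits glucose to the pathway, had 230.3 and 227 CPM in Veh and 76 and 78.4 CPM in NRRA (log2 -1.57, SE 0.0428, adjusted p = 1.17e-33). Pkm, which makes pyruvate, had 1617 and 1664 CPM in Veh and 647 and 656 CPM in NRRA (log2 -1.33, SE 0.0338, adjusted p = 5.85e-35). Aldoa, the aldolase in mid-pathway, had 812 and 780.3 CPM in Veh and 341 and 346 CPM in NRRA (log2 -1.21, SE 0.0363, adjusted p = 5.02e-32). In these genes the replicates were near each other and the groups far apart.

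Glucose and lactate transport followed the enzymes. Slc2a1 and Slc2a3, glucose importers, changed by -1.18 and -1.24, and Slc16a3, which exports lactate, by -1.12 (log2). Ldha, which turns pyruvate into lactate, went from 365 ± 6.86 to 183 ± 11.6 CPM (log2 -0.998) and Gapdh from 1033 ± 19.4 to 545 ± 2.34 CPM (log2 -0.92). Pdk4, the kinase that holds back pyruvate oxidation in fasting, rose from 4.57 ± 0.984 to 11.9 ± 0.448 CPM (log2 1.38), while its relative Pdk1 fell (log2 -0.74). G6pdx, at the entry to the pentose phosphate pathway, fell (log2 -0.87). Tkt, the transketolase of that pathway, changed by -0.59, and Pgk1 of glycolysis by -0.58 (log2). Several of these genes have processed pseudogenes, and how reads with several matches were treated is not given in the sources used here.

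Lipid genes fell more modestly. Of 20 tested enzymes of sterol synthesis, 11 fell and 1 rose (median log2 fold change -0.26). Hmgcs1, at the head of the pathway, had 237 and 250.7 CPM in Veh and 125 and 131 CPM in NRRA (log2 -0.93, SE 0.0426, adjusted p = 2.32e-24). Idi1 (log2 -0.79) and Sqle (log2 -0.71) fell less. Srebf2, the transcription factor of the pathway, went from 333 ± 15.6 to 201 ± 0.93 CPM (log2 -0.72). Abca1, the cholesterol exporter, rose from 126 ± 3.07 to 220.5 ± 3.34 CPM (log2 0.81). Abcg1, a further exporter, rose by 0.22, and Insig1, a sterol-sensing brake, changed by -0.36 (log2). For fatty acids, 10 of 16 tested genes fell and 4 rose (7 and 5 with total count scaling), with Scd2 at -0.63 and Fasn at -0.40 (log2). Scd1 fell as well (log2 -0.53), and Acly, which supplies acetyl-CoA, gave -0.0033 (log2, adjusted p = 0.949). Abcg1 was not called without NRRA replicate 2 or Veh replicate 1 (log2 0.19 to 0.20, adjusted p 0.0519 to 0.0678).

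**Figure D4:**
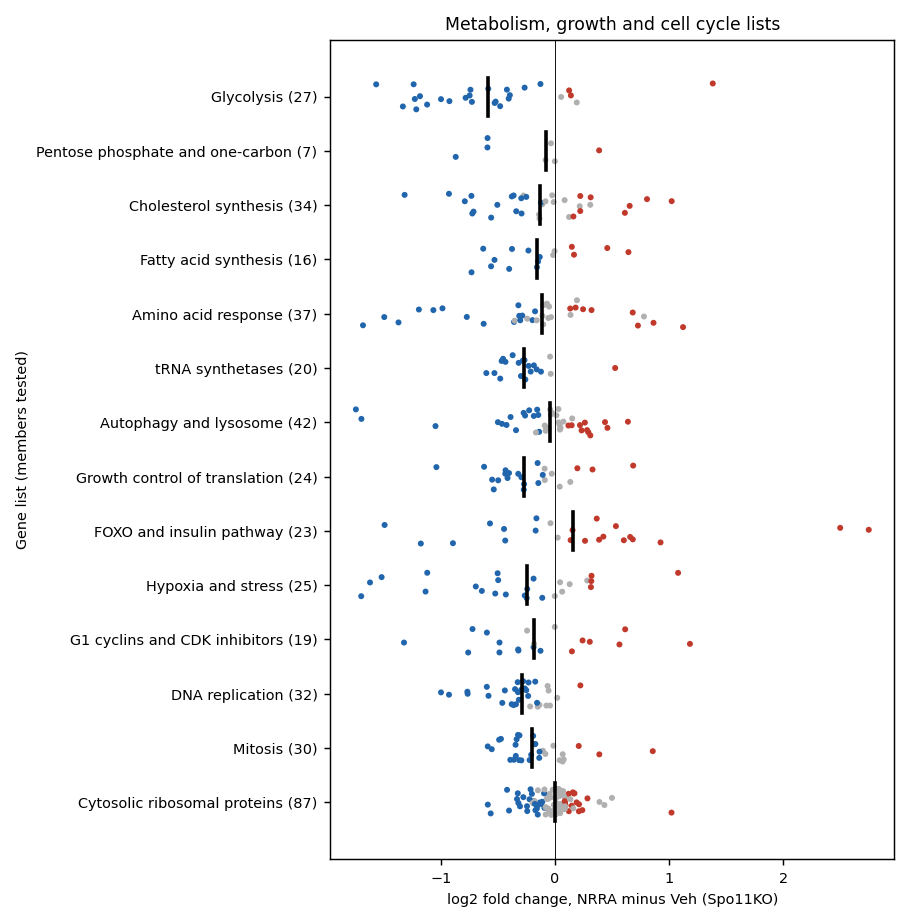
Log2 fold change, NRRA minus Veh, in Spo11KO cultures (x axis) of each tested member of 14 lists of metabolism, growth and cell cycle (rows), drawn as in the plot of germ cell lists. Most glycolysis members lie left of 0, most tRNA synthetases and DNA replication genes lie a little left of 0, and cytosolic ribosomal protein genes centre on 0.

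Amino acid starvation is usually read out through the factor ATF4, whose protein was not measured here. An RNA level of Atf4 does not give the activity of that protein. Atf4 itself had 105 and 104 CPM in Veh and 93.1 and 103 CPM in NRRA (adjusted p = 0.125), and of 37 tested genes of the amino acid response list 8 rose and 15 fell. Among regulators, Atf5 rose from 68.9 ± 4.52 to 150.1 ± 3.7 CPM (log2 1.12, SE 0.0465, adjusted p = 3.66e-26) and Ddit3, the stress factor CHOP, from 15.2 ± 1.53 to 27.6 ± 1.54 CPM (log2 0.86), while Ddit4, a brake on mTOR, fell from 64.4 ± 8.71 to 25 ± 1.09 CPM (log2 -1.37). Asns, the asparagine synthetase that ATF4 induces, rose by 0.18 (log2). Sesn2, a leucine sensor, rose by 0.13 (log2). Trib3 and Chac1, usual ATF4 targets, did not pass (log2 -0.034 and -0.24, adjusted p = 0.858 and 0.4). Phgdh and Shmt2, of serine and glycine synthesis, went from 175 ± 5.46 to 76.7 ± 1.75 CPM (log2 -1.19) and from 244 ± 2.41 to 117 ± 0.966 CPM (log2 -1.06). Psat1 and Mthfd2 fell less (log2 -0.29 and -0.32). Amino acid transporters fell in 7 of 10 cases, led by Slc7a11 (log2 -1.68), Slc38a1 (log2 -1.49) and Slc7a5 (log2 -0.98). Slc7a1 and Slc38a2 changed by -0.30 and -0.31 (log2). Asns was not called without NRRA replicate 2 or Veh replicate 1 (log2 0.13 to 0.15, adjusted p 0.0842 to 0.161). Sesn2 was not called without NRRA replicate 1, NRRA replicate 2 or Veh replicate 2 (log2 0.062 to 0.14, adjusted p 0.0565 to 0.417).

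Genes that supply translation were lower by small steps. Of 20 tested cytosolic tRNA synthetases, 17 fell and 1 rose, with a median log2 fold change of -0.27: Kars was the lowest (log2 -0.60) and Wars the riser (log2 0.53). Aars and Gars lay between them (log2 -0.45 and -0.30). Of 24 genes of growth control and ribosome assembly, 16 fell and 3 rose, or 13 and 5 with total count scaling. Nop56 of the nucleolus fell from 145 ± 5.76 to 99.7 ± 1.4 CPM (log2 -0.54) and Rragd, a GTPase that brings mTORC1 to the lysosome, from 156 ± 3.68 to 76.2 ± 2.4 CPM (log2 -1.04), while Mtor itself rose from 232 ± 0.208 to 373 ± 10.1 CPM (log2 0.69). Ncl, nucleolin, and Eif4ebp1, a brake on translation, changed by -0.29 and -0.15 (log2). Cytosolic ribosomal protein genes, 87 tested, had 15 up and 25 down with a median of -0.0022 (log2), and 33 up and 16 down with total count scaling. Eif4ebp1 was not called without Veh replicate 1 (log2 -0.13, adjusted p = 0.0703).

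Nuclear genes of oxidative phosphorylation fell in 37 of 77 cases and rose in 7, with a median log2 fold change of -0.12 and 0 members at 2-fold. With total count scaling 20 fell and 15 rose. Of the 13 mitochondrial-encoded subunit genes 5 fell, the lowest being mt-Nd1 (log2 -0.58), and 0 rose. Autophagy and lysosome genes split, with 11 of 42 up and 15 down, or 15 up and 11 down with total count scaling. Sqstm1, the cargo adaptor p62, had 410.2 and 399 CPM in Veh and 398 and 398 CPM in NRRA (adjusted p = 0.615), Ulk1, which starts autophagy, rose by 0.26 (log2), and Tfeb, the transcription factor of lysosomal genes, went from 61.1 ± 1.92 to 18.9 ± 1.49 CPM (log2 -1.69). Ctsl, a lysosomal protease, had 1440.1 and 1543 CPM in Veh and 725 and 720.0 CPM in NRRA (log2 -1.05). Map1lc3b, which makes LC3, changed by -0.19 (log2). Gabarapl1, Lamp1 and Ctsd did not pass (log2 0.042, -0.079 and 0.031, adjusted p = 0.536, 0.0527 and 0.511).

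Among insulin and FOXO genes, 13 of 23 rose and 8 fell. Igf1 went from 2.05 ± 0.255 to 13.8 ± 0.873 CPM (log2 2.75, SE 0.15, adjusted p = 2.23e-21) and Igfbp3, which binds it, from 42.2 ± 0.357 to 238 ± 1.06 CPM (log2 2.50, SE 0.0448, adjusted p = 2.20e-41). Igfbp5 rose by 0.68, while Irs2, an insulin receptor substrate, changed by -0.16 and Txnip, a brake on glucose uptake, by -0.44 (log2). Stress genes fell in 16 of 25 cases and rose in 4, or 14 and 7 with total count scaling. The targets of the oxidative stress factor NRF2 led, with Hmox1 from 235 ± 7.34 to 72.5 ± 0.178 CPM (log2 -1.70), Nqo1 at -1.62 and Txnrd1 at -1.13 (log2). Vegfa, a hypoxia target, changed by -0.52, and Hspa5, the chaperone BiP, by -0.26 (log2). Cdkn1a, the p53 target p21, gave -0.0012 (log2, adjusted p = 0.983). Irs2 was not called without NRRA replicate 2 or Veh replicate 1 (log2 -0.13 to -0.075, adjusted p 0.241 to 0.507).

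Proliferation genes were lower by modest steps. Of 32 DNA replication genes 23 fell and 1 rose, with a median log2 fold change of -0.29, and of 30 mitosis genes 20 fell and 3 rose (15 and 7 with total count scaling), with a median of -0.20. Rrm2, the ribonucleotide reductase subunit of S phase, had 93.3 and 94.6 CPM in Veh and 47.1 and 47 CPM in NRRA (log2 -0.998, SE 0.0533, adjusted p = 9.34e-22). Mcm10, of the replication fork, and Pcna, its clamp, changed by -0.93 and -0.46 (log2). The helicase subunits Mcm2 and Mcm5 changed by -0.23 and -0.44 (log2). For mitosis, Plk1 and Cdk1 changed by -0.59 and -0.47, and Mki67, the usual proliferation marker, by -0.18 (log2), while Cdc25c rose by 0.86 (log2). Ccnb1, cyclin B, changed by -0.31 (log2).

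Regulators of the G1 phase moved in both directions, with 6 of 19 up and 10 down, 1 each at least 2-fold, and a median log2 fold change of -0.19. Ccnd1 had 475 and 493 CPM in Veh and 186 and 201 CPM in NRRA (log2 -1.32, SE 0.0388, adjusted p = 2.47e-32), and Cdk4, its kinase, went from 258 ± 9.51 to 156 ± 2.71 CPM (log2 -0.72). Cdk6 rose (log2 0.57). Ccne1, cyclin E, changed by -0.19 (log2). Of the 7 inhibitors of cyclin-dependent kinases, Cdkn1c rose from 17.1 ± 1.36 to 38.9 ± 1.28 CPM (log2 1.18) and Cdkn2d by 0.62 (log2), and Cdkn1b fell (log2 -0.60). Ccne1 was not called without NRRA replicate 1, Veh replicate 1 or Veh replicate 2 (log2 -0.21 to -0.16, adjusted p 0.0532 to 0.141).

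Some of the largest changes were in genes named for other tissues. Of 22 tested neuron-type genes, 7 rose and 11 fell. Nefm, a neurofilament subunit, had 215 and 221 CPM in Veh and 4.13 and 4.16 CPM in NRRA (log2 -5.71, SE 0.0706, adjusted p = 3.89e-48), and Fev, an ETS factor known from serotonin neurons, had 14.6 and 14 CPM in Veh and 0.309 and 0.307 CPM in NRRA (log2 -5.51, SE 0.225, adjusted p = 2.08e-26). Nefl, a further neurofilament, fell (log2 -2.81), and so did Elavl2 (log2 -1.14), whereas its relative Elavl3 rose (log2 2.87) with Map2 (log2 2.10). The neuronal markers Dcx and Th were too low to test.

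Homeobox genes of the Hox clusters fell in 15 of 35 cases and rose in 5. Hoxc11, Hoxc12 and Hoxc13, neighbours at the 5′ end of their cluster, fell from 8.54 ± 0.228 to 0.777 ± 0.375 CPM, from 6.37 ± 0.216 to 0.668 ± 0.365 CPM and from 17.7 ± 0.65 to 2.76 ± 0.0859 CPM (log2 -3.48, -3.28 and -2.68). Among the anterior Hox genes, Hoxb2 and Hoxb4 changed by -1.53 and -0.995 (log2). Hoxc10 changed by -0.46 and Hoxa9 rose by 0.95 (log2). Among Sox and Sall factors 10 of 17 fell and 3 rose: Sall3 had 100.2 and 94.9 CPM in Veh and 3.2 and 3.45 CPM in NRRA (log2 -4.87, SE 0.0828, adjusted p = 2.30e-42), Sox13 changed by -1.93 and Sox12 by 1.27 (log2). Sox4 changed by -0.40 (log2). In the Wnt list 13 of 32 rose and 9 fell, with the target gene Axin2 up from 14.9 ± 0.374 to 37.2 ± 0.977 CPM (log2 1.32) and the ligand booster Rspo2 down from 54.6 ± 0.566 to 10.1 ± 0.080 CPM (log2 -2.44). Sp5, also a target, changed by -1.52 (log2), and Lef1 gave -0.068 (adjusted p = 0.816). In the BMP and TGF-beta list 11 of 28 rose and 14 fell, with Tgfb2 up from 4.97 ± 0.539 to 33.5 ± 2.0 CPM (log2 2.76) and the BMP antagonist Grem1 down from 181 ± 7.72 to 24.1 ± 0.919 CPM (log2 -2.91). Bmp4 rose by 1.48 and its target Msx1 changed by -2.57 (log2). The inhibitors of differentiation Id2 and Id3 changed by 0.55 and -0.32 (log2), and Id1 gave 0.12 (adjusted p = 0.314). Id2 was not called without NRRA replicate 2 or Veh replicate 1 (log2 0.33 to 0.35, adjusted p 0.179 to 0.23).

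Markers of the fibroblast feeder layer moved with the medium. The 20 markers together took 1.62% and 1.62% of the counts in the Veh libraries and 2.59% and 2.49% in the NRRA libraries. Members moved unequally: 12 rose, 8 fell, and the median log2 fold change was 0.23. The collagens Col1a1 and Col3a1 went from 2315 ± 87.3 to 5792 ± 256 CPM and from 960.4 ± 0.137 to 3068 ± 107 CPM (log2 1.32 and 1.68), and Fap, a surface protease of activated fibroblasts, from 2.94 ± 0.34 to 29.6 ± 0.111 CPM (log2 3.33). Col1a2 and Pdgfrb rose by 1.35 and 0.67 (log2). S100a4 (log2 -1.66), Fn1 (log2 -0.38) and Prrx1 (log2 -0.38) fell. Xist, transcribed from the inactive X chromosome and so a mark of female cells, had 162 and 179.9 CPM in Veh and 170.3 and 179.7 CPM in NRRA, groups that overlapped (adjusted p = 0.534). The part that the amount of feeder RNA has in any result was not tested.

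Matrix genes changed in both directions and by large amounts. Ogn, a small leucine-rich proteoglycan, had 0.926 and 1.17 CPM in Veh and 156 and 161 CPM in NRRA (log2 7.23, SE 0.0976, adjusted p = 1.16e-46). Its relatives Aspn, Fmod and Prelp rose by 3.53, 2.53 and 2.20 (log2), and 7 of 9 tested members of the family rose. Decorin, Dcn, rose by 0.29, and lumican, Lum, changed by -0.52 (log2). Among proteases, Mmp3, a stromelysin, had 1301 and 1345 CPM in Veh and 158 and 150.3 CPM in NRRA (log2 -3.10, SE 0.0377, adjusted p = 2.61e-48), and Adamts5, an aggrecanase, had 8.68 and 11.9 CPM in Veh and 131 and 137 CPM in NRRA (log2 3.70, SE 0.0913, adjusted p = 4.39e-17). Spp1, osteopontin, went from 1544 ± 61.1 to 229.9 ± 10.8 CPM (log2 -2.75), Tnc, tenascin, from 4887 ± 188 to 1955 ± 10.3 CPM (log2 -1.32) and Lox, which crosslinks collagen, from 554 ± 10.8 to 1817 ± 84.2 CPM (log2 1.71). Timp3, a protease inhibitor, rose by 2.27 (log2). Mmp13 gave -0.11 (log2, adjusted p = 0.0896).

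Contractile genes rose in 12 of 14 cases, 9 at least 2-fold, with a median log2 fold change of 1.38. Acta2, smooth muscle actin and a mark of myofibroblasts, had 23.5 and 24.4 CPM in Veh and 389.7 and 409 CPM in NRRA (log2 4.06, SE 0.0517, adjusted p = 2.34e-47). Tagln had 27 and 27.7 CPM in Veh and 107 and 109 CPM in NRRA (log2 1.98), Myl9 rose by 2.07 and Lmod1 by 3.34 (log2). Actg2 and Cnn1 rose by 2.09 and 1.02 (log2). Ccn2, a matrix protein induced by TGF-beta, went from 34.5 ± 2.86 to 133 ± 2.05 CPM (log2 1.94). Smtn alone fell (log2 -0.23). Cnn1 was not called without NRRA replicate 1 (log2 0.66, adjusted p = 0.108). Smtn was not called without NRRA replicate 1 (log2 -0.18, adjusted p = 0.0515).

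Interferon-stimulated genes rose in 23 of 24 cases, 7 at least 2-fold, with a median log2 fold change of 0.82. These genes answer interferon through factors that bind an element with GAAA at either end and 2 bases of any kind between. Isg15, a ubiquitin-like protein, had 63.5 and 59 CPM in Veh and 143 and 152 CPM in NRRA (log2 1.27, SE 0.0638, adjusted p = 8.09e-13). Ifit3, which binds foreign RNA, had 62.5 and 64.2 CPM in Veh and 148 and 182 CPM in NRRA (log2 1.38, SE 0.163, adjusted p = 0.00233). Irf7 went from 75 ± 0.916 to 202 ± 4.69 CPM (log2 1.43) and Bst2 from 112 ± 4.95 to 248 ± 0.558 CPM (log2 1.15), and Irf1 was the faller (log2 -0.21). Ifit1 rose by 0.96 (log2).

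This element was in the 250 bases before the start of 9 of the 17 interferon-stimulated genes that had a RefSeq promoter, on either strand. Over all genes it was in 936 of 27025 (3.46%), and by promoter in 978 of all 32851 (2.98%). Isg15, Ifit3 and Bst2 had more than 1 match and a rise of at least 2-fold, and the promoters of the first pair, with the larger rises, are shown. Capitals mark each match, and adjoining matches in Isg15 overlap.
Isg15 promoter, chr4:156200819-156201068, minus strand: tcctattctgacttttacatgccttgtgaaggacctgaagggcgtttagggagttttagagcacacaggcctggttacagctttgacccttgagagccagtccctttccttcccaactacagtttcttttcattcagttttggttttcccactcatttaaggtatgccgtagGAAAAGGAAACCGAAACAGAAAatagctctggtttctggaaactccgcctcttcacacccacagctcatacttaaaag
Ifit3 promoter, chr19:34583279-34583528, plus strand: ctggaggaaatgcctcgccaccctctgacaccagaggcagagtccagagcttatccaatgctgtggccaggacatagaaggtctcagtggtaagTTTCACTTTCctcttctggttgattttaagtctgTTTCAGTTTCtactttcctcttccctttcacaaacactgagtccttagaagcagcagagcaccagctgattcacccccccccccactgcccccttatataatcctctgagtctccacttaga

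Isg15 held 3 matches, on the gene's strand, and Ifit3 held 2, on the opposite strand. Ifit3 has a close copy nearby, so its counts are uncertain. Antigen presentation genes rose in 8 of 12 cases and fell in 2. Tap1, the peptide transporter, went from 36.3 ± 0.614 to 64.7 ± 3.88 CPM (log2 0.84) and B2m, the light chain of MHC class I, from 514 ± 31.8 to 698 ± 48.4 CPM (log2 0.44), while Nlrc5, which drives MHC class I transcription, fell (log2 -0.61). H2-K1, a class I heavy chain, rose by 0.99 (log2), and reads of such close copies can be split between genes.

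Chemokine and cytokine genes split, with 10 of 21 up and 7 down. Cxcl9 had 0.969 and 1.09 CPM in Veh and 13.4 and 16.3 CPM in NRRA (log2 3.85, SE 0.173, adjusted p = 8.97e-25) and Cxcl10, like it a T cell attractant, had 20.8 and 15.5 CPM in Veh and 59.3 and 82.4 CPM in NRRA (log2 1.97, SE 0.313, adjusted p = 0.00687). Ccl20 had 2 and 3 counts in Veh and 133 and 219 counts in NRRA, a ratio of levels of 59.6 (95% counting interval 25.3 to 185). Cxcl12, a stromal chemokine, went from 40.5 ± 0.361 to 110.0 ± 4.36 CPM (log2 1.44). Il33, an alarmin, went from 81.5 ± 5.97 to 7.56 ± 0.222 CPM (log2 -3.43), and the gp130 cytokines Il11 and Lif changed by -2.34 and -1.70 (log2). Kitl, the ligand of KIT, changed by -0.33 and Cxcl1 by -0.84 (log2). Ccl2 gave 0.00098 (log2, adjusted p = 0.986). Cxcl10 was not called without Veh replicate 2 (log2 1.76, adjusted p = 0.0516).

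Keratinocyte genes mostly fell. Krt1, Krt5 and Krt14 were too low to test, and 2 of 15 tested members rose and 9 fell. Sprr3, a cornified envelope protein, had 0 and 2 counts in Veh and 169 and 221 counts in NRRA, a ratio of 165 (95% counting interval 45.4 to 1367), and Lce1g went from 4.11 ± 0.268 to 0.167 ± 0.0913 CPM (log2 -4.61). The simple keratins Krt8, Krt18 and Krt19 fell (log2 -2.84, -1.39 and -2.15), and Cdh1, E-cadherin, gave -0.061 (log2, adjusted p = 0.814). Of 11 endothelial markers 9 were tested, 2 rose and 4 fell, with Cldn5 too low to test and Sox7 falling from 8.38 ± 1.01 to 0.614 ± 0.0491 CPM (log2 -3.75). Pecam1 changed by -2.15 (log2) and Cdh5 gave -0.42 (adjusted p = 0.0867). Krt8 was not called without Veh replicate 1 (log2 -1.88, adjusted p = 0.107).

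Genes outside the lists were named by size. Among the 15 largest rises were Ptn, a heparin-binding growth factor (from 0.58 ± 0.225 to 13.8 ± 0.0268 CPM, log2 4.57), Ptx3, a soluble pattern receptor (from 3.14 ± 0.624 to 54 ± 2.0 CPM, log2 4.10), C1qtnf3 (log2 4.03), Rgs4, which switches off G proteins (log2 4.0), and Lhx8, a LIM homeobox factor known from oocytes and forebrain (from 0.257 ± 0.00594 to 6.92 ± 0.397 CPM, log2 4.72). Among the 15 largest falls were Mpzl2, a cell adhesion protein (from 63.7 ± 1.99 to 2.72 ± 0.737 CPM, log2 -4.53), Nxph4 (log2 -4.40), the muscle acetylcholine receptor subunit Chrna1 (log2 -4.38) and the homeobox factor Barhl2 (from 112 ± 2.27 to 5.65 ± 0.354 CPM, log2 -4.31). By change in CPM, Prss23, a secreted protease, rose from 64.6 ± 2.91 to 619 ± 11.8 CPM (log2 3.26), with its antisense gene Prss23os at 3.25 (log2), whose reads cannot be told apart from those of Prss23 because the strand setting of the counting is not given in the sources used here. Saa3, an acute phase protein, went from 290.3 ± 8.18 to 914 ± 70.2 CPM (log2 1.65).

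Whether the NRRA response of the Spo11KO cultures differed from that of the Stra8KO cultures was tested as an interaction, the Spo11KO change minus the Stra8KO change. Genotype and culture cannot be told apart in it. The cell mix also differed by its markers: the fibroblast markers took 1.62% of the counts in the Spo11KO Veh libraries and 2.85% and 2.92% in the Stra8KO Veh libraries, the general germ cell genes 0.198% and 0.201% against 0.0929% and 0.0928%, and the DNA replication genes 0.415% and 0.409% against 0.196% and 0.193%. The part of these shares in the interactions was not tested. A call was made in 5172 genes (25.1%), of which 2121 had the higher (10.3%) and 3051 the lower (14.8%) change in Spo11KO, or 3473 and 2188 with total count scaling. The lists differed in how many members were called. Of the undifferentiated genes 19 of 22 had the lower change in Spo11KO and 0 the higher, and the median change was -2.20 in Spo11KO and -0.092 in Stra8KO (log2). Foxc2, for example, changed by -3.34 in Spo11KO and -0.0083 in Stra8KO (interaction -3.33, SE 0.163, adjusted p = 2.10e-22). Id4 went in opposite directions, -1.37 and 1.33 (interaction -2.70, SE 0.127, adjusted p = 5.14e-23), and so did Nanos3, -2.44 and 0.66 (interaction -3.10, SE 0.197, adjusted p = 4.29e-18).

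The highest and lowest interactions, picked by size alone, showed both directions. Ccno, a cyclin relative known from multiciliated cells, changed by 2.17 in Spo11KO and -1.05 in Stra8KO (interaction 3.22, SE 0.352, adjusted p = 2.36e-10), and Osbp2, an oxysterol-binding protein, by 2.27 and -0.80 (interaction 3.07, SE 0.333, adjusted p = 2.01e-10). These 2 rose in Spo11KO and fell in Stra8KO. Sema7a, a membrane-bound semaphorin, fell in both, with changes of -1.61 and -4.35 (interaction 2.74). Others at the high end rose in Spo11KO and did not pass in Stra8KO: Lhx8 (interaction 4.06), Klhl32 (2.44), Plk5 (2.37) and the contactin gene Cntn3 (2.30).

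At the low end Sall3 changed by -4.87 in Spo11KO and 0.22 in Stra8KO (interaction -5.09), and Trf, transferrin, by -3.81 and 0.85 (interaction -4.66, SE 0.0943, adjusted p = 7.63e-38). Opposite directions were also found for Gprc5c (-2.31 and 2.10), Dtx1, a Notch pathway ligase (-1.21 and 3.09), Sox2, a pluripotency factor (-2.52 and 1.74), and the protocadherin gene Pcdh12 (-4.75 and 1.04). T, the mesoderm factor Brachyury, fell in both (-5.36 and -0.74). Btbd17 had 68 and 42 counts in Veh and 0 and 2 counts in NRRA in Spo11KO, a ratio of Veh to NRRA of 65 (95% counting interval 17.6 to 544), while it rose by 1.97 (log2) in Stra8KO.

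**Figure D5:**
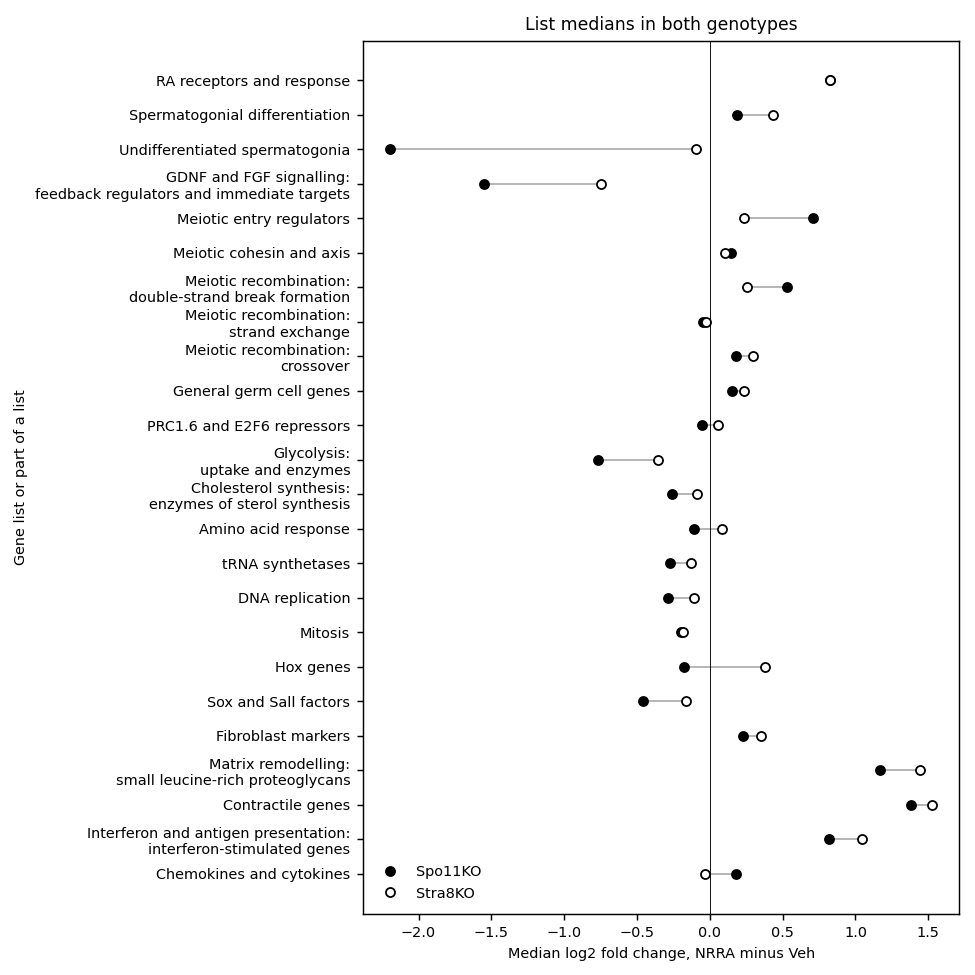
Median log2 fold change, NRRA minus Veh, of 24 gene lists or parts of lists (rows) in Spo11KO cultures (filled circles) and Stra8KO cultures (open circles), over the same tested members. The circles lie far apart for undifferentiated spermatogonia and close together for RA, mitosis and contractile genes.

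Metabolic genes also differed. All 20 glycolysis genes fell in Spo11KO, against 16 that fell and 2 that rose in Stra8KO (20.2% and 21.6% of all tested genes there, 41.9% together), and 16 had the lower change in Spo11KO by the interaction test. Hk2 changed by -1.57 in Spo11KO and -0.12 in Stra8KO (interaction -1.44, SE 0.0609, adjusted p = 7.62e-25). Phgdh changed by -1.19 and 0.34 (interaction -1.53, SE 0.0642, adjusted p = 6.57e-25). In amino acid response genes 19 of 37 had the lower change in Spo11KO and 1 the higher, and among Hox genes 16 of 35 and 0.

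Feeder-type and RA genes had these counts. Of the 14 contractile genes 2 had a called interaction, of the 24 interferon-stimulated genes 7, all lower in Spo11KO, and of the 20 fibroblast markers 7, of which 2 had the higher and 5 the lower change in Spo11KO. With total count scaling the contractile genes had 2 higher and 1 lower, the interferon-stimulated genes 1 and 5 and the fibroblast markers 5 and 4. Acta2 rose by 4.06 in Spo11KO and 4.24 in Stra8KO (interaction adjusted p = 0.0712), Ogn by 7.23 and 7.56 (adjusted p = 0.435), and Rarb by 5.60 and 5.46 (adjusted p = 0.884). Misses of the threshold do not show that the changes were equal. In the RA list 4 of 32 had the higher and 11 the lower change in Spo11KO, with Rec8 rising by 2.46 and 3.76 (interaction -1.30, SE 0.148, adjusted p = 1.10e-09) and Rxrg changing by -3.60 and -0.63 (interaction -2.97, SE 0.287, adjusted p = 6.33e-12).

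Meiotic genes were counted in the same way. Of 17 entry regulators 4 had the higher change in Spo11KO and 1 the lower, and of 7 break formation genes 2 and 0. The other meiotic groups were more even. Of 22 cohesin and axis genes 5 had the higher and 3 the lower change. The counts were 2 and 2 of 17 strand exchange genes, and 1 and 1 of 17 crossover genes. Over all tested genes the shares were 10.3% higher and 14.8% lower. Ccna1 changed by 2.31 in Spo11KO and 0.066 in Stra8KO (interaction 2.24, SE 0.601, adjusted p = 0.00353), Rbm46 by 1.35 and 0.43 (interaction 0.91, SE 0.101, adjusted p = 3.49e-10) and Prdm9 by 0.77 and -0.13 (interaction 0.90, SE 0.272, adjusted p = 0.0106). Gm4969 rose in both, by 2.35 and 2.43 (interaction adjusted p = 0.907), and so did Tex15, by 0.71 and 0.85 (interaction adjusted p = 0.154). Stra8 itself rose by 9.24 and 7.25 (interaction 1.99, SE 1.71, adjusted p = 0.465), with 2 and 0 counts in the Stra8KO Veh libraries.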

How the data were processed

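Poly(A) RNA of 8 SSC cultures, 2 for each of Spo11KO and Stra8KO in NRRA and in Veh, was sequenced. The deposited table holds whole-number read counts per gene, which the authors made without normalization, with bcl2fastq, STAR 2.6.1c and featureCounts 1.6.4 on mm10 per the submitters' processing notes. Treatment of reads with several matches and the strand setting are not given in the sources used here, so copies, pseudogenes and antisense genes are uncertain, and labels and methods name different library kits.

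Counts were fitted in R 4.3.3 with edgeR 4.0.16 (filterByExpr, TMM, robust quasi-likelihood F test, two-sided, group means of all 8 libraries), with Benjamini-Hochberg adjustment over all 20588 tested genes. In simulated counts with the design of the Spo11KO comparison, on 19969 genes, 100 genes were changed 2-fold and 100 were changed 4-fold. Of these 96% and 100% were recovered, with 16 unchanged genes called. The changes were equally up and down, in genes above a minimum level, with the spread taken from the fit. Far more genes changed in the data, and recovery under that condition or at low levels was not tested. Libraries held 20960794 to 27038868 counts. Counting intervals cover counting error only. Genes were looked up in GENCODE and promoters in RefSeq tables of GRCm38, the assembly that mm10 names. Genes were named from lists by role, by a key status, or by the largest changes: the 15 largest in each direction by fold and by CPM, and the 8 highest and 8 lowest interactions, at an average log2 CPM of at least 1. Members and lists were chosen with earlier results of these data known. Alternatives were other scalings, filters, DESeq2 1.42.0, the Spo11KO libraries alone, a replicate block, a stricter threshold and each Spo11KO library left out. List medians did not move when genes with at most 3 counts per library in a group were set at that floor. This changed at most 3 members of a list, so it could hardly move a median and says little of its stability. Some genes that this rule names are not reported here.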

Additional observations from a re-analysis of the deposited data

Results flagged for a closer look

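For 32 genes named above the NRRA change was called in opposite directions in the Spo11KO and the Stra8KO cultures, and the difference between the 2 changes passed the interaction test. Values are log2 fold changes, NRRA minus Veh, first in Spo11KO and then in Stra8KO, followed by the interaction, and 30 of these genes fell in Spo11KO and rose in Stra8KO while 2 did the reverse. Over all tested genes 424 went the first way and 216 the second. Adjusted p values of edgeR's interaction test ran from 7.63e-38 to 5.18e-04, and genotype and culture cannot be told apart.

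Genes of spermatogonia and of their growth factor signalling were Gfra1 (-1.85 and 0.80, interaction -2.65), Zbtb16 (-1.04 and 0.59, interaction -1.63), Sall1 (-2.13 and 0.21, interaction -2.34), Pax7 (-2.26 and 1.35, interaction -3.62), Id4 (-1.37 and 1.33, interaction -2.70) and Pou5f1 (-1.27 and 0.33, interaction -1.60). Nanos3, Dmrtb1 and Mycn belonged with them, with Nanos3 (-2.44 and 0.66, interaction -3.10), Dmrtb1 (-0.94 and 0.53, interaction -1.47) and Mycn (-1.08 and 0.32, interaction -1.40). The FGF receptor gene among them was Fgfr1 (-0.20 and 0.10, interaction -0.29).

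Developmental regulators were Sall3 (-4.87 and 0.22, interaction -5.09), Hoxb1 (-1.42 and 1.07, interaction -2.49), Hoxb2 (-1.53 and 0.38, interaction -1.91), Hoxb4 (-0.995 and 0.21, interaction -1.21) and Id3 (-0.32 and 0.29, interaction -0.61). Genes of metabolism and growth were Phgdh (-1.19 and 0.34, interaction -1.53), Pdk1 (-0.74 and 0.72, interaction -1.46), Rragd (-1.04 and 0.14, interaction -1.18), Slc38a2 (-0.31 and 0.15, interaction -0.46), Slc7a1 (-0.30 and 0.15, interaction -0.45) and Irs2 (-0.16 and 0.26, interaction -0.42). Of the rest, named in lists, there were Pecam1 (-2.15 and 0.92, interaction -3.08), Pcgf6 (-0.40 and 0.24, interaction -0.64) and Irf1 (-0.21 and 0.22, interaction -0.43). Named by the size of the interaction were Trf (-3.81 and 0.85, interaction -4.66), Gprc5c (-2.31 and 2.10, interaction -4.40), Dtx1 (-1.21 and 3.09, interaction -4.31), Sox2 (-2.52 and 1.74, interaction -4.26) and Pcdh12 (-4.75 and 1.04, interaction -5.78), with Btbd17 (-5.83 and 1.97, interaction -7.80) as a fitted value that rests on 0 and 2 counts in NRRA. The reverse was seen in Ccno (2.17 and -1.05, interaction 3.22) and Osbp2 (2.27 and -0.80, interaction 3.07).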

How the results depend on the processing

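The number of called genes in Spo11KO was 10279, and stayed between 8324 (DESeq2) and 10763 (replicate block) under the alternatives, 8970 to 9288 with a library left out, where the lone library is assumed to vary like the other groups. Calls at 2-fold numbered 2163 to 2648 against 2539. Interaction calls (5172) numbered 3570 at an adjusted p under 0.01, 3629 by DESeq2 and 4547 to 4870 with a library left out. Genes with the higher interaction numbered 3473 with total counts and 1353 at the stricter threshold, and genes with the lower one 2002 by DESeq2. With no filter beyond 1 count the interaction split was 2656 higher and 2256 lower, against 2121 and 3051. The causes were not tested. Same-numbered libraries deviated together only weakly (r = 0.147 in Spo11KO and 0.0161 in Stra8KO, over 14673 genes), with too few pairs to show pairing. The replicate block gave 10763 calls in Spo11KO, 2540 at 2-fold and 5903 interactions.

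Of 318 named genes, 281 were called, and 0 of these changed direction in any alternative run, while 22 lost the call in at least 1. Lost calls are named above only for runs with a library left out. In other runs 7 named genes lost the call with total counts, 6 with the DESeq2 Wald test and 4 with no filter beyond 1 count. Of the uncalled genes 22 changed sign and 12 passed the test in at least 1 alternative. Mga passed with DESeq2 size factors, total counts, each other filter and the replicate block, and without NRRA replicate 1. Mmp13 passed with the replicate block and without NRRA replicate 2 or Veh replicate 1, and Lamp1 with the replicate block and without NRRA replicate 2. Dnmt3a passed with total counts and with no filter beyond 1 count. Ccl2, Ctsd, Gabarapl1 and Xist passed only with total counts, and Cdh5 only without NRRA replicate 2. Atf4 passed without NRRA replicate 2 (log2 -0.18, adjusted p = 0.00572), and Acly and Cdkn1a passed with total counts (adjusted p = 0.0306 and 0.0365). With DESeq2 size factors, Acly gave 0.0017, Cdkn1a gave 0.00372. With total counts, Acly gave 0.0886, Atf4 gave 0.00238, Cdh1 gave 0.0308, Cdkn1a gave 0.0908, Dazl gave 0.0633, Dnmt1 gave 0.0285, Lamp1 gave 0.0135, Lef1 gave 0.0237, Lin28a gave 0.0458, Meiob gave 0.00193, Sqstm1 gave 0.0675, Trib3 gave 0.0573, Wt1 gave 0.0229. With no filter beyond 1 count, Acly gave 0.0446, Cdkn1a gave 0.0466, Dazl gave 0.0196, Lin28a gave 0.00217, Sqstm1 gave 0.0236, Trib3 gave 0.015. With an average of at least 10 counts, Acly gave 0.000275, Cdkn1a gave 0.00241. With the DESeq2 Wald test, Acly gave 0.00169, Cdkn1a gave 0.00362. With only the 4 Spo11KO libraries, Ccl2 gave -0.00123. With each library left out in turn, these ranges crossed 0: Acly -0.0258 to 0.00762, Ccl2 -0.0677 to 0.0415, Cdh1 -0.19 to 0.0408, Cdkn1a -0.0543 to 0.0415, Chac1 -0.49 to 0.0486, Ctsd -0.00123 to 0.0512, Cyp17a1 -0.89 to 0.27, Dazl -0.10 to 0.0146, Lef1 -0.17 to 0.0286, Lin28a -0.11 to 0.00775, Meiob -0.65 to 0.27, Msh5 -0.099 to 0.21, Rdh10 -0.0444 to 0.0672, Syce1 -0.085 to 0.0833, Trib3 -0.29 to 0.15, Wt1 -0.15 to 0.0097, Xist -0.0383 to 0.10, Ythdc2 -0.0737 to 0.10. With total counts 5 of 43 list medians had the other sign. With 2 libraries a group, differences near the spread were not detectable.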
